A study of Homo sapiens with 12 samples.

Results

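The 8 genes described here encode transcription factors that set hepatocyte identity: HNF4A, FOXA1, FOXA2, FOXA3, CEBPA, CEBPB, ONECUT1 and PROX1. They were taken by gene symbol from a table of read counts for 62475 genes, whatever their expression. All 8 were found, and all 8 were among the 14435 genes with enough counts for a test. The cells were HepG2, an established human liver cancer line that keeps many hepatocyte functions. They carried either wild-type HDAC1 (WT) or HDAC1_S434A, a form of this histone deacetylase with alanine in place of a serine (S434A). Each genotype was cultured without H89 (untreated) and with it (treated), H89 being a small-molecule blocker of the cAMP-dependent kinase PKA, which gave 4 groups of 3 biological replicates and 12 libraries. The sources used here give neither dose nor time of H89, nor how the mutant cells were made or whether they are 1 clone. P-values therefore measure the spread between these cultures only. Counts per gene do not show a base substitution, and so cannot check which HDAC1 form a library carries. Nor do they measure PKA activity, so differences with H89 are given as effects of H89 and not of PKA alone.

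Hepatocyte transcription factors form a network whose members regulate one another and bind together at liver enhancers. HNF4A is a nuclear receptor required for most hepatocyte gene expression, and the FOXA proteins are pioneer factors that open chromatin. C/EBP proteins are leucine zipper factors of metabolic and acute-phase genes. ONECUT1 (HNF6) acts early in liver development, and PROX1 is a homeobox factor and a corepressor of HNF4A. HDAC1 removes acetyl groups from histones within corepressor complexes, and PKA carries the cAMP signal of glucagon to CREB and other factors.

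The libraries held 17562754 to 37187794 counts, and their composition went with the groups. Mitochondrial transcripts took 1.48 to 1.51% of counts in untreated WT, 3.16 to 7.02% in untreated S434A, and 4.91 to 6.26% in the H89 libraries. Transcripts of ribosomal proteins took 18.3 to 18.8%, 8.64 to 10.6% and 6.73 to 7.26% in the same order. Longer genes ran below their 12-library mean in the untreated libraries (rho of -0.43 to -0.42 in WT and -0.19 to -0.08 in S434A) and above it with H89 (0.42 to 0.46). Genes of higher GC content ran above their 12-library mean in untreated S434A, with Spearman rho across genes of 0.81, 0.71 and 0.13 in replicates 1, 2 and 3. They ran below it in the H89 libraries (rho of -0.44 to -0.22) and slightly below in untreated WT (-0.10 to -0.07). Replicate 1 of untreated S434A stood furthest apart, and results that rest on it are given also without it. Of the variance of log2 fold changes, GC content with exonic length took 38.7% between the untreated genotypes, 24.9% in WT upon treatment, 52.6% in S434A upon treatment and 3.44% between the treated genotypes. Each test was therefore repeated after these trends were removed from every library, and both values are given for the 8 genes. The 8 genes span 40.7% GC (PROX1) to 66.2% GC (CEBPB), against a median of 49.0% over the genes tested. The trends went with the groups, so their removal takes out a shift of expression and a shift of library make-up alike. It cannot tell the 2 apart, and how much of a difference is due to library make-up was not tested.

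Hepatocyte and HepG2 markers were abundant in all 12 libraries. The 6 markers of that list (ALB, AFP, APOA1, APOB, TTR and SERPINA1) summed to 65858 to 66621 CPM (counts relative to library size, scaled by TMM) in untreated WT, 37382 to 42226 in treated WT, 23320 to 47217 in untreated S434A and 37961 to 39356 in treated S434A. Of 7 fibroblast markers, 6 were under 1 CPM in every library, and COL1A2, DCN and THY1 had no counts. The exception was PDGFRB, at 17.7 to 39.6 CPM, which was higher in untreated S434A than in untreated WT (33.2 ± 7.93 against 18.2 ± 0.335 CPM; log2 0.87, edgeR adjusted p = 0.000478) and stood at 0.12 after trend removal (adjusted p = 0.197). The blood and endothelial markers PTPRC, KDR and HBB had no counts, CD68 had at most 1, and VWF and CDH5 were present at up to 6.70 and 2.88 CPM. VWF also differed between the untreated genotypes (log2 1.47, edgeR adjusted p = 0.000805; 0.53 after trend removal, adjusted p = 0.0592). All 5 intestinal and pancreatic markers, among them CDX2 and PDX1, were under 1 CPM in every library. The biliary and progenitor genes KRT19, SOX9, EPCAM and SPP1 were expressed and KRT7 was at most at 2 counts. That list summed to 1413 to 1433 CPM in untreated WT, 1822 to 2093 in treated WT, 546 to 1213 in untreated S434A and 1868 to 2234 in treated S434A. SPP1 made up most of that sum in untreated WT (1079 CPM on average). SOX9 was higher in untreated S434A than in untreated WT (149 ± 21.2 against 54.6 ± 0.474 CPM, log2 1.45, edgeR adjusted p = 9.34e-07, 1.47 after trend removal). KRT19 was also higher there (log2 0.30) and EPCAM lower (log2 -0.50), at 0.18 and -0.12 after trend removal. With H89 in WT, SOX9 rose (log2 1.92, edgeR adjusted p = 3.69e-08, 2.13 after trend removal) and KRT19 fell (log2 -0.69). The part of these markers in the results below was not tested. In bulk RNA such as this, fewer cells of a kind and less RNA per cell cannot be told apart.

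Levels of different genes were compared as CPM per kilobase of exon. In WT without H89 CEBPB was highest at 54.5 ± 3.99 (SD, n = 3), followed by FOXA3 at 23.3 ± 1.62 and HNF4A at 20.7 ± 0.529. FOXA2 (10.9 ± 0.238), CEBPA (9.46 ± 0.354) and FOXA1 (6.21 ± 0.0510) came next, and PROX1 (0.838 ± 0.0625) and ONECUT1 (0.643 ± 0.0594) were lowest. No neighbours in this order had overlapping libraries. The other 3 groups began instead with CEBPB, HNF4A and FOXA2, followed by FOXA3, and ended with PROX1 and ONECUT1. Neighbours overlapped for FOXA2 with FOXA3, CEBPA with FOXA1 and PROX1 with ONECUT1 in untreated S434A, and for FOXA1 with CEBPA in treated S434A. Thus FOXA3 ranked above HNF4A in the untreated wild type only among the 4 groups.

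HNF4A (ENSG00000101076.17_6, hg19 chromosome 20, 42984340 to 43063236, plus strand) is transcribed from an upstream and a downstream promoter, which gene-level counts do not separate. The windows around 2 of its starts are shown from 250 bases before to 50 bases after the start, from RefSeq on GRCh38.p14, a build other than that of the counts. Capitals mark letters that match the ONECUT-type ATTGAT, the CCAAT box or the HNF1-type GTTAAT, on either strand. The upstream window is chr20:44355449-44355748 and the downstream one chr20:44400989-44401288, both on the plus strand.
HNF4A upstream: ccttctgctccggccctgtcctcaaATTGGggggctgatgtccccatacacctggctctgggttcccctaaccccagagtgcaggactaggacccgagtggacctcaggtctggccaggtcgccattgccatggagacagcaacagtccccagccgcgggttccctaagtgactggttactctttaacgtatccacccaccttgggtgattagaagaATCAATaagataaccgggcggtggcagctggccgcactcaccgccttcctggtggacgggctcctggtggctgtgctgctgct
HNF4A downstream: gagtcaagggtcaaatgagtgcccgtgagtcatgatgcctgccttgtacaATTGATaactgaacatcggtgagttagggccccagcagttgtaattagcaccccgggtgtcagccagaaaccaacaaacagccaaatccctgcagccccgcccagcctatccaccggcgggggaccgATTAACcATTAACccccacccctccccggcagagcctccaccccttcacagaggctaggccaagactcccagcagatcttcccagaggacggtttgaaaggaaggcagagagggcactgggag

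Counted from the start, the ONECUT-type letters begin at -33 in the upstream window and at -200 in the downstream one. The upstream window holds the CCAAT box, as ATTGG, at -225, and the downstream window the HNF1-type letters, as ATTAAC, at -73 and -66. Among 35116 promoter windows of this length, 6.26% held the ONECUT-type letters and 6.88% the HNF1-type letters. A match of letters is a description and does not show binding.

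HNF4A stood at 154, 155 and 148 CPM in untreated WT, at 340.0, 339.7 and 305 with H89, at 358, 321 and 232 in untreated S434A and at 335, 312 and 348 in treated S434A. Every library of the other 3 groups lay above every untreated WT library, and untreated S434A spread most. Against untreated WT (152 ± 3.88 CPM; SD, n = 3), HNF4A was 1.99-fold higher in S434A (log2 1.0, SE 0.129, edgeR adjusted p = 6.18e-05). H89 raised it 2.16-fold in WT (log2 1.11, SE 0.129, edgeR adjusted p = 1.87e-05). In S434A the H89 difference was 0.13 (log2; edgeR adjusted p = 0.426), and the 2 H89 effects differed by -0.98 (SE 0.181, edgeR adjusted p = 0.00112). After trend removal the same 4 values were 0.49, 0.71, 0.25 and -0.46 and all passed, with adjusted p of 7.56e-05, 1.65e-06, 0.0142 and 0.00262. HNF4A was therefore still higher in untreated S434A than in untreated WT, by a smaller margin. Without replicate 1 of untreated S434A the genotype difference was 0.86 as counted.

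The FOXA genes did not move as 1 family. FOXA1 (ENSG00000129514.8_7, chromosome 14, 38058757 to 38065264) and FOXA2 (ENSG00000125798.14_6, chromosome 20, 22561643 to 22566093) were higher in S434A and with H89, and FOXA3 (ENSG00000170608.3_6, chromosome 19, 46367247 to 46377055) was lower with H89. FOXA1 and FOXA2 act together at the onset of liver development, and FOXA3 is expressed later and is known for its part in glucose homeostasis.

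FOXA1 had 27.4, 27.2 and 27.7 CPM in untreated WT, 51.5, 53.4 and 52.7 in treated WT, 50.3, 50.9 and 41.8 in untreated S434A, and 51.4, 49.4 and 49.3 in treated S434A. FOXA2 had 29.04, 28.0 and 28.0 CPM in untreated WT, 53.8, 53.9 and 48.3 in treated WT, 71.4, 62.6 and 46.2 in untreated S434A, and 53.1, 51.9 and 51.3 in treated S434A. For both genes the untreated WT libraries were the lowest 3 of 12 with no overlap. FOXA3 had 53.1, 46.2 and 49.5 CPM in untreated WT, 28.99, 29.5 and 28.9 in treated WT, 47.9, 41.8 and 38.3 in untreated S434A, and 32.0, 30.9 and 33.0 in treated S434A. All 6 H89 libraries lay below all 6 untreated ones for FOXA3, and the untreated genotypes overlapped.

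Without H89, FOXA1 was 1.74-fold higher in S434A than in WT (log2 0.80, SE 0.0790, edgeR adjusted p = 1.02e-05) and FOXA2 2.12-fold higher (log2 1.08, SE 0.129, edgeR adjusted p = 3.59e-05). Trend removal left these at 0.73 and 1.02, and leaving out replicate 1 of untreated S434A at 0.76 and 0.94. FOXA3 differed by -0.22 (SE 0.0884, edgeR adjusted p = 0.0532), which missed the threshold, but passed after trend removal (-0.24, adjusted p = 0.00343), with RLE factors (-0.28, adjusted p = 0.0122) and without that replicate (-0.31, adjusted p = 0.00351). In WT, H89 raised FOXA1 1.91-fold (log2 0.94, edgeR adjusted p = 1.44e-06) and FOXA2 1.84-fold (log2 0.88, edgeR adjusted p = 0.000111), and lowered FOXA3 1.70-fold (log2 -0.77, edgeR adjusted p = 1.78e-05). After trend removal these were 1.04, 1.21 and -0.39, all past the threshold, so the fall of FOXA3 was the one that shrank. In S434A, FOXA1 and FOXA2 differed with H89 by 0.07 and -0.20 (edgeR adjusted p = 0.465 and 0.198). FOXA3 fell by 0.42 on the log2 scale (edgeR adjusted p = 0.0038), a call that trend removal ended at -0.04 (adjusted p = 0.651). The sign for FOXA2 turned with it to 0.17 (adjusted p = 0.0752), and FOXA1 passed at 0.22 (adjusted p = 0.00593).

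The H89 effects of the 2 genotypes differed for all 3 FOXA genes: by -0.87 for FOXA1 (edgeR adjusted p = 0.000122), -1.08 for FOXA2 (edgeR adjusted p = 0.000616) and 0.35 for FOXA3 (edgeR adjusted p = 0.0383). Trend removal changed these little, to -0.82, -1.04 and 0.35. As counted, the call for FOXA3 was lost without replicate 1 or 3 of untreated WT, of treated WT or of treated S434A, and without replicate 2 of untreated S434A, with adjusted p of 0.0530 to 0.0978. The make-up of the family shifted accordingly. FOXA3 gave 57.7 ± 1.38% of the summed FOXA CPM per kilobase in untreated WT (SD, n = 3), 30.1 ± 0.652% in treated WT, 37.4 ± 2.19% in untreated S434A and 32.4 ± 0.899% in treated S434A. FOXA2 gave 26.9 ± 0.774% in untreated WT and between 42.5 and 43.8% on average in the other 3 groups, and FOXA1 rose from 15.4% to between 20.1 and 26.1% on average.

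**Figure D1:**
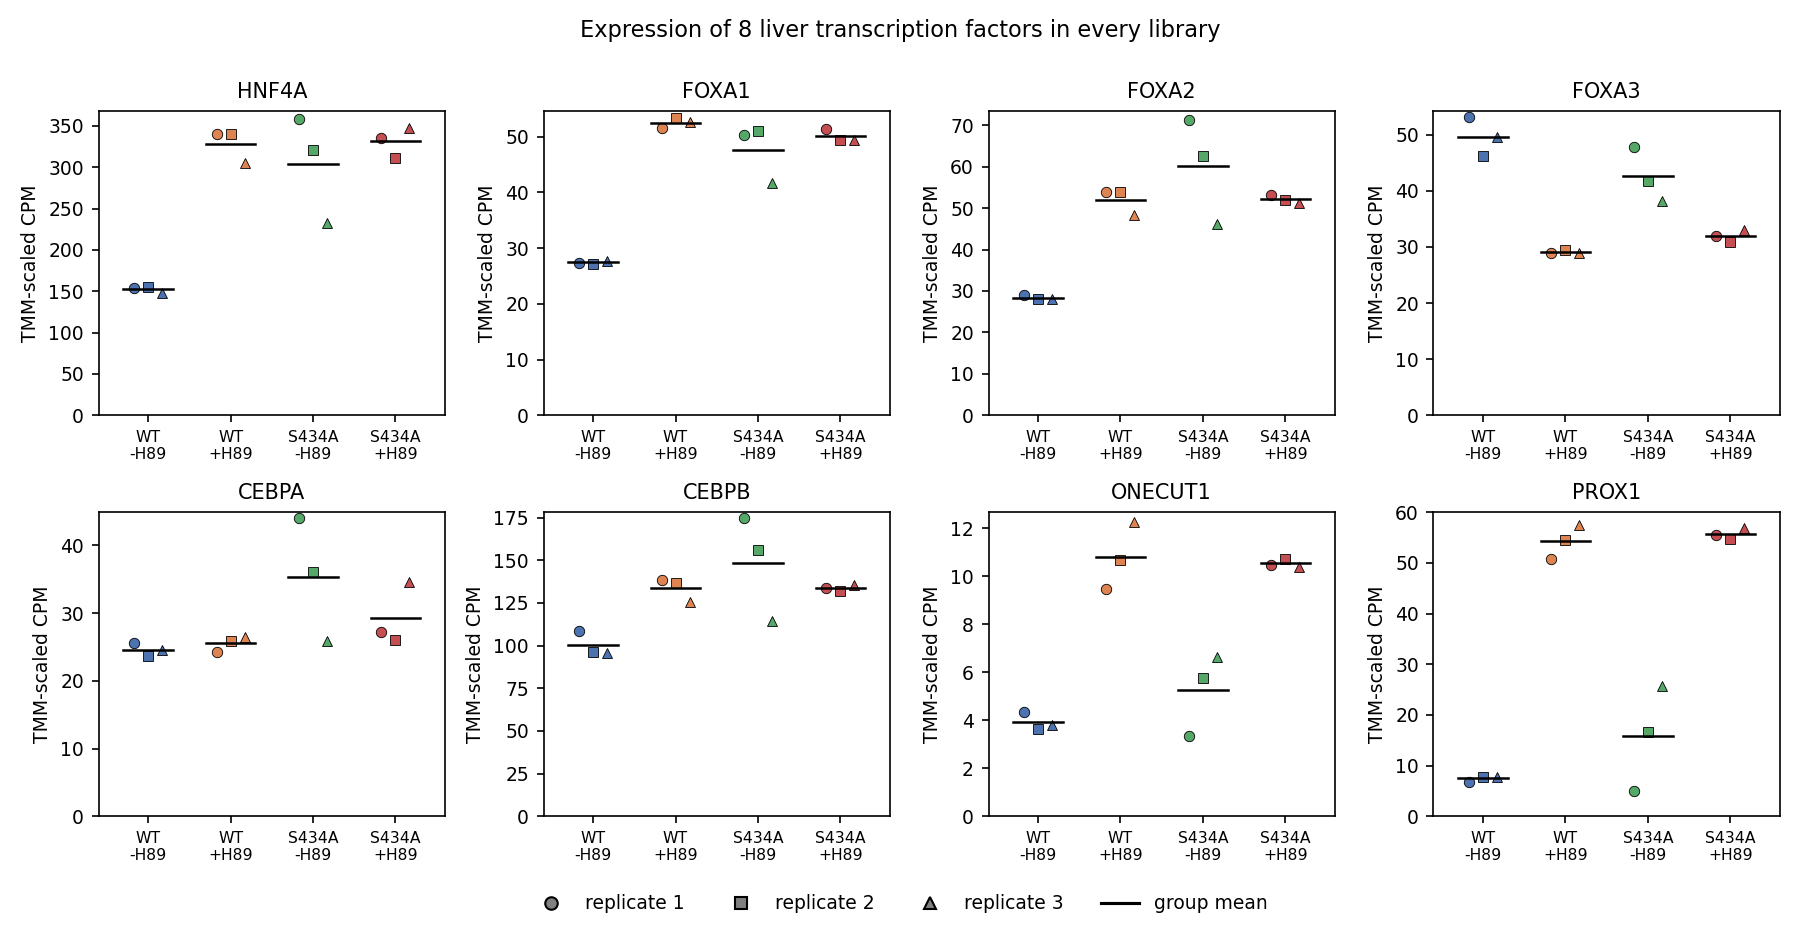
TMM-scaled CPM of each of the 8 genes (y axis from 0) in the 4 groups (x axis); symbols are the 3 replicates of a group and lines are group means. Untreated WT is the lowest group for HNF4A, FOXA1, FOXA2 and CEBPB, the H89 groups are lowest for FOXA3, and PROX1 is at 5.06 to 25.8 CPM in untreated S434A against 50.8 to 57.5 in the H89 libraries.

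FOXA3, which moved against FOXA1 and FOXA2, has a promoter window (GRCh38.p14, chr19:45864076-45864375, plus strand) of 76.3% GC, against a median of 58.7% over all windows. CEBPA (80.7%), CEBPB (77.0 and 76.7%), ONECUT1 (75%) and FOXA1 (69.3%) also lay above that median, and no window was matched for FOXA2. Capitals mark TATAAA, which begins at -30 from the start and is found in 11.5% of the 35116 windows. CEBPA and CEBPB hold it too, so neither feature is particular to FOXA3.
FOXA3: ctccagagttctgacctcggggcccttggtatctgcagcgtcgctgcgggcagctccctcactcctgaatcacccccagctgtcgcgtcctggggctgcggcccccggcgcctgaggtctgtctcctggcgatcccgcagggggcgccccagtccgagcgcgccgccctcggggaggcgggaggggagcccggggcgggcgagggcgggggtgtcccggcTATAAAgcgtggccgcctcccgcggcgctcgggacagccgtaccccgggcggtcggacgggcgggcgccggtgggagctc

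The FOXA1 window held none of the searched letters other than the GC box GGGCGG, which 45.0% of windows hold.

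CEBPA (ENSG00000245848.3_5, chromosome 19, 33790840 to 33793440), the C/EBP factor that restrains proliferation and drives energy metabolism in the adult liver, changed less. It had 25.5, 23.7 and 24.6 CPM in untreated WT, 24.3, 25.9 and 26.5 in treated WT, 44.0, 36.1 and 25.9 in untreated S434A, and 27.1, 26.0 and 34.6 in treated S434A. Replicates 1 and 2 of untreated S434A were the highest of all libraries, and replicate 3 lay just above untreated WT. CEBPA was 1.43-fold higher in untreated S434A than in untreated WT (log2 0.52, SE 0.170, edgeR adjusted p = 0.0212). Trend removal ended that call at 0.10 (adjusted p = 0.455), and so did leaving out replicate 2 of untreated S434A (0.48, adjusted p = 0.0684) or replicate 2 or 3 of untreated WT (0.49 and 0.52, adjusted p of 0.0658 and 0.0568). Without replicate 1 of untreated S434A the value was 0.33 (adjusted p = 0.0492). With H89 CEBPA differed by 0.06 in WT and -0.27 in S434A (edgeR adjusted p = 0.780 and 0.201), and the sign of both depended on scaling or trend removal. For WT the limma-voom 95% interval was a fold of 0.797 to 1.35.

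CEBPB (ENSG00000172216.6_5, chromosome 20, 48807367 to 48809205), the C/EBP factor known for acute-phase, gluconeogenic and cAMP-responsive transcription, was higher in all 3 other groups than in untreated WT. It had 109, 96.1 and 95.9 CPM in untreated WT, 139, 137 and 125 in treated WT, 175, 156 and 114 in untreated S434A, and 134, 132 and 135 in treated S434A. The untreated WT libraries were the lowest 3 of 12. CEBPB was 1.48-fold higher in untreated S434A than in untreated WT (log2 0.56, SE 0.127, edgeR adjusted p = 0.00276), at 0.42 after trend removal and 0.43 without replicate 1 of untreated S434A. H89 raised it 1.33-fold in WT (log2 0.41, SE 0.127, edgeR adjusted p = 0.0132). RLE factors gave 0.27 (adjusted p = 0.0740) and trend removal 0.65 (adjusted p = 1.7e-06), and a fit of the 2 WT groups alone gave 0.27 with an adjusted p of 0.000892, so the call depended on the fit. Leaving out any 1 of the 3 treated WT libraries also ended it, with adjusted p of 0.200, 0.180 and 0.0842 without replicates 1, 2 and 3. In S434A the H89 difference was -0.15 (edgeR adjusted p = 0.345), and trend removal turned it to 0.22 (adjusted p = 0.0175). The H89 effects differed by -0.56 between genotypes (edgeR adjusted p = 0.0234; -0.42 after trend removal, adjusted p = 0.00235). As counted, 8 of the 12 leave-one-out fits lost that call, with adjusted p of 0.0533 to 0.0688: without replicate 2 or 3 of untreated WT, replicate 1 or 2 of treated WT, replicate 2 of untreated S434A, or any replicate of treated S434A.

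The windows of CEBPA and CEBPB are shown because PKA, which H89 blocks, carries the cAMP signal to CREB. The full CREB site TGACGTCA and its shorter core TGACG (which the full site contains) were searched on both strands. Capitals mark TATAAA in CEBPA, and the CCAAT box, TGACG and TATAAA in CEBPB. Both are on GRCh38.p14, CEBPA at chr19:33302485-33302784 on the minus strand and CEBPB at chr20:50190580-50190879 on the plus strand, which is 1 of 2 windows matched for this gene.
CEBPA: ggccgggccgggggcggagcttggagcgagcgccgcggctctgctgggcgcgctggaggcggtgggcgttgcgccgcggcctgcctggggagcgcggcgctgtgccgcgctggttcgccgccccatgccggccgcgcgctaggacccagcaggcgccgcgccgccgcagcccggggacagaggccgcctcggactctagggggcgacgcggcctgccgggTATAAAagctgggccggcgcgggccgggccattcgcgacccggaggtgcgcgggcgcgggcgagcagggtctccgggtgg
CEBPB: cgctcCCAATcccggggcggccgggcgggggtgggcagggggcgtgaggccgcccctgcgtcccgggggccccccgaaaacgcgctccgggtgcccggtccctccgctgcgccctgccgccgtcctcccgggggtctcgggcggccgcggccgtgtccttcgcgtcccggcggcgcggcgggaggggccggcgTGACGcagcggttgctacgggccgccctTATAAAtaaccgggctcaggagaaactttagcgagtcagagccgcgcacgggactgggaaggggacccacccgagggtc

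The core in CEBPB begins at -57, and 24.6% of all windows held one. The full site, present in 1.85% of all windows, was in none of the 8 windows of the 6 genes matched here, nor were the C/EBP-type TTGCNNAA, the FOXA-type TGTTTAC or the HNF4-type CAAAGTCCA. These windows were matched for HNF4A, FOXA1, FOXA3, CEBPA, CEBPB and ONECUT1.

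The ratio of CEBPB to CEBPA within a library does not depend on scaling to library size. Per kilobase it was 6.02, 5.74 and 5.52 in untreated WT, 8.08, 7.47 and 6.68 in treated WT, 5.62, 6.12 and 6.24 in untreated S434A, and 6.98, 7.17 and 5.53 in treated S434A. The WT libraries with H89 all lay above those without, a difference of 0.36 in the mean log2 ratio (exact 2-sided permutation p = 0.10, the smallest that 3 against 3 allows). The other 3 comparisons gave 0.06 between the untreated genotypes, 0.12 for H89 in S434A and -0.18 between the treated genotypes (exact 2-sided permutation p = 0.40 in each). Adjusted over the 4 comparisons, p was 0.40 in each. CEBPA and CEBPB have like GC contents (65.9 and 66.2%) but lengths of 2601 and 1839 bases, and after trend removal the first 2 differences were 0.67 for H89 in WT and 0.33 for S434A against WT without H89.

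**Figure D2:**
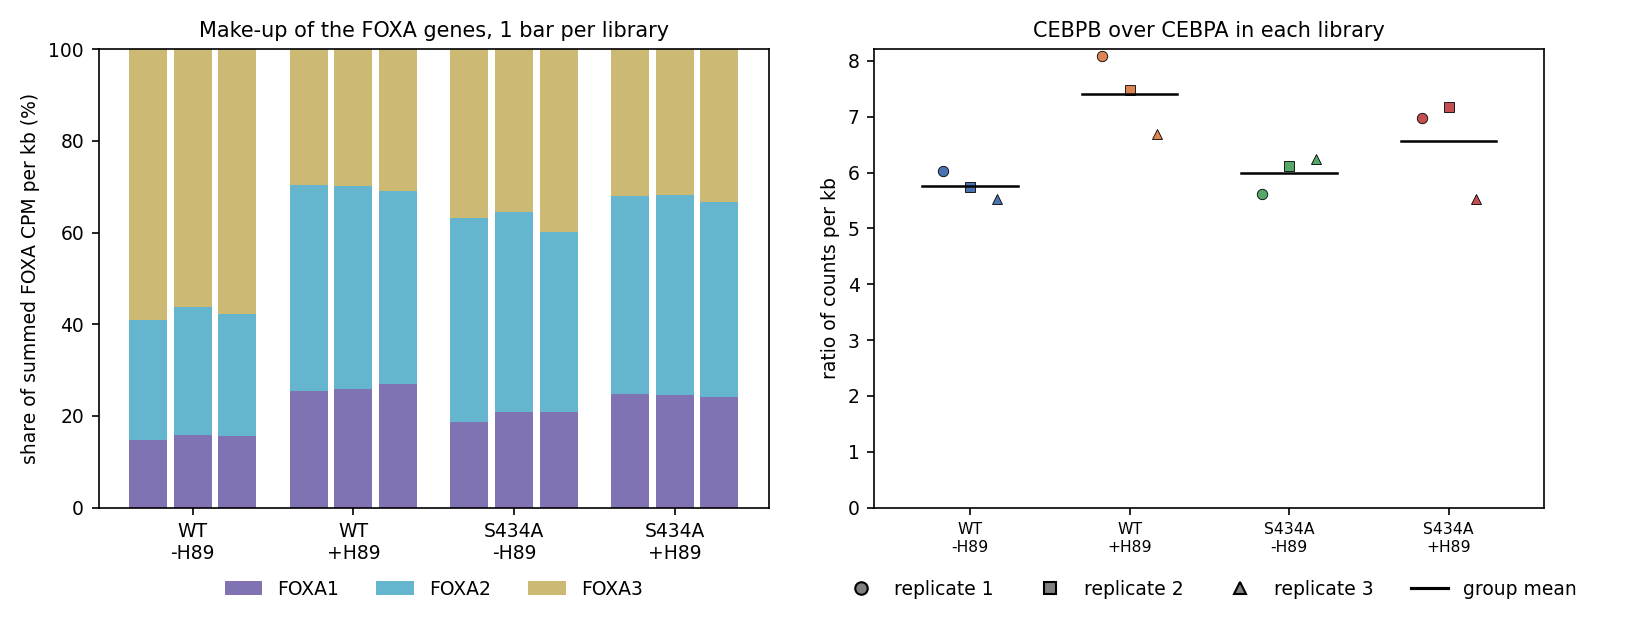
Left, share (y axis, %) of FOXA1, FOXA2 and FOXA3 in their summed CPM per kilobase, 1 bar per library in the 4 groups. Right, ratio of CEBPB to CEBPA counts per kilobase in each library, with symbols for replicates and lines for group means. FOXA3 takes 57.7% on average in untreated WT and 30.1 to 37.4% in the other groups, and the ratio spans 5.52 to 8.08 over all libraries.

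ONECUT1 and PROX1 were the least expressed of the 8 genes per kilobase and, as counted, the ones that H89 raised in both genotypes. After trend removal HNF4A, FOXA1 and CEBPB also passed as raised in both. In a fit of the 2 S434A groups alone PROX1 lost its call (adjusted p = 0.0575). ONECUT1 (ENSG00000169856.9_6, chromosome 15, 53047250 to 53083275) had 4.34, 3.64 and 3.81 CPM in untreated WT, 9.46, 10.7 and 12.3 in treated WT, 3.34, 5.76 and 6.65 in untreated S434A, and 10.5, 10.7 and 10.4 in treated S434A. Its 6 H89 libraries lay above its 6 untreated ones. H89 raised ONECUT1 2.74-fold in WT (log2 1.45, SE 0.209, edgeR adjusted p = 9.42e-05) and 2.01-fold in S434A (log2 1.0, SE 0.209, edgeR adjusted p = 0.00335), at 1.02 and 1.23 after trend removal. The 2 effects differed by -0.45 (edgeR adjusted p = 0.235; 0.21 after trend removal). Without H89 the genotypes differed by 0.42 (SE 0.214, edgeR adjusted p = 0.12), and the sign turned to -0.22 after trend removal (adjusted p = 0.526). Without replicate 1 of untreated S434A both values passed as counted, at 0.65 (adjusted p = 0.00123) and -0.69 (adjusted p = 0.00518). Its counts ran from 62 to 260 per library, the fewest of the 8 genes.

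PROX1 (ENSG00000117707.16_8, chromosome 1, 214156524 to 214214853) rose the most of the 8 genes with H89 as counted. It had 6.84, 7.84 and 7.77 CPM in untreated WT, 50.8, 54.5 and 57.5 in treated WT, 5.06, 16.6 and 25.8 in untreated S434A, and 55.4, 54.7 and 56.8 in treated S434A. The H89 libraries of both genotypes lay close together and far above the untreated ones, and untreated S434A spread 5.09-fold from lowest to highest and overlapped untreated WT. H89 raised PROX1 7.25-fold in WT (log2 2.86, SE 0.420, edgeR adjusted p = 0.000128) and 3.52-fold in S434A (log2 1.82, SE 0.403, edgeR adjusted p = 0.00487). After trend removal these were 2.00 and 0.76 (adjusted p = 2.1e-08 and 0.000513), so the size of the rise depended on it more than its direction. On that scale ONECUT1 rose more than PROX1 in S434A (1.23).

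PROX1 is the longest of the 8 genes (8936 bases) and has the lowest GC content, and within untreated S434A it was lowest in the library with the steepest GC trend. With the trends removed it stood at 8.71, 10.1 and 9.73 CPM in untreated WT, 38.2, 39.9 and 36.2 in treated WT, 16.1, 22.4 and 26.6 in untreated S434A, and 39.7, 35.9 and 38.2 in treated S434A. On that scale untreated S434A lay between untreated WT and the H89 groups, with no overlap. As counted, S434A exceeded WT without H89 by 1.08 (SE 0.408, edgeR adjusted p = 0.0422), and after trend removal by 1.24 (SE 0.135, adjusted p = 5.7e-06). Without replicate 1 of untreated S434A the value was 1.51 as counted (adjusted p = 7.64e-07) and 1.38 after trend removal (adjusted p = 1.4e-11). Without replicate 3 of that group it was 0.53 (adjusted p = 0.231), and leaving out replicate 2, or any 1 untreated WT library, also lost the call, with adjusted p of 0.0859 to 0.113. RLE factors, limma-voom, no filter on low counts and a fit of these 2 groups alone lost it too, with adjusted p of 0.0549 to 0.158. The H89 effects differed by -1.04 between genotypes (edgeR adjusted p = 0.154), and by -1.24 after trend removal (adjusted p = 9.16e-05).

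**Figure D3:**
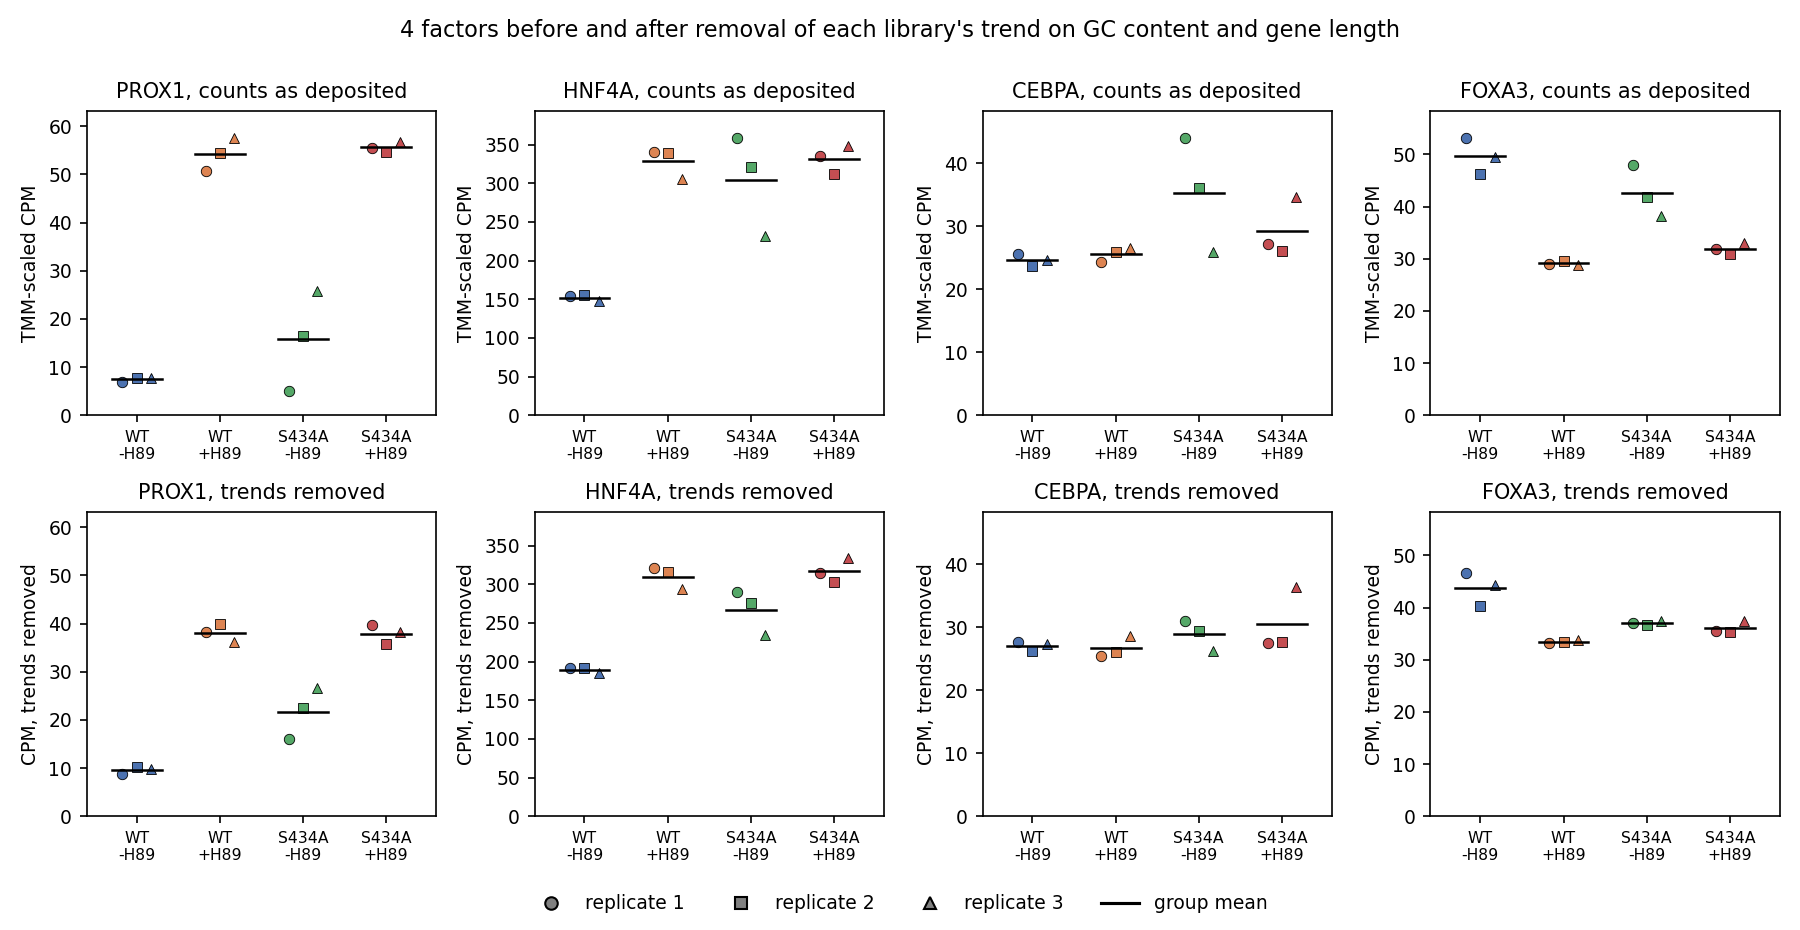
CPM (y axis from 0) of PROX1, HNF4A, CEBPA and FOXA3 in the 4 groups (x axis), as deposited and scaled (top) and after the GC and length trends were taken out of each library (bottom); symbols are replicates and lines group means. Untreated S434A overlaps untreated WT for PROX1 in the top row (5.06 to 25.8 against 6.84 to 7.84) and not in the bottom row (16.1 to 26.6 against 8.71 to 10.1), while CEBPA overlaps only in the bottom row.

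S434A against WT without H89 asks what the mutation changes in untreated cells. HNF4A, FOXA1, FOXA2, CEBPA, CEBPB and PROX1 were higher in S434A, 6 of the 8 genes, and none was lower. Of all genes tested, 29.0% were called higher and 29.3% lower. Past 2-fold were FOXA2 and PROX1, against 22.9% of all genes in either direction. The median log2 change of the 8 was 0.68, beside -0.04 over all genes tested. After trend removal 5 rose (not CEBPA) and FOXA3 fell, with a median of 0.46 beside 0.05. Of all 14280 genes in that fit, 4246 were higher and 4111 lower. In a fit of these 2 groups alone the split over all genes was 4493 higher and 2478 lower, in place of 4186 and 4232.

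The H89 effect in WT asks what H89 changes in the presence of the wild-type deacetylase. HNF4A, FOXA1, FOXA2, CEBPB, ONECUT1 and PROX1 rose, 6 of 8, beside 38.8% of all genes. FOXA3 fell, beside 30.9% of all genes, and CEBPA did not pass. HNF4A, ONECUT1 and PROX1 passed 2-fold, beside 38.0% of all genes. With TMM the median of the 8 was 0.91, beside 0.20 over all genes. RLE factors gave an all-gene median of 0.05, with 4779 genes higher and 5046 lower in place of 5598 and 4467. The 8 genes shifted with those factors too, CEBPA to -0.094 and CEBPB to 0.27 (adjusted p = 0.0740, past the threshold no longer). In each of these 2 fits HNF4A, FOXA1, FOXA2, CEBPB, ONECUT1 and PROX1 lay above the all-gene median of that fit, and FOXA3 and CEBPA below it. After trend removal the same 6 rose and FOXA3 fell, beside 5488 genes higher and 4985 lower of 14280.

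The H89 effect in S434A asks whether H89 still acts in mutant cells. ONECUT1 and PROX1 rose, both past 2-fold, and FOXA3 fell. The background was 29.3% of genes higher, 22.7% lower and 17.6% past 2-fold in either direction. The median of the 8 was -0.04, beside 0.01 over all genes. This comparison depended most on the processing. With RLE factors 3566 genes were higher and 4273 lower, in place of 4224 and 3280, and a fit of these 2 groups alone called 2743 genes in all and only ONECUT1 of the 8. After trend removal HNF4A, FOXA1, CEBPB, ONECUT1 and PROX1 rose and none fell, beside 2973 genes higher and 3341 lower of 14280. Without replicate 3 of untreated S434A 6 of the 8 passed, with FOXA2, CEBPA and CEBPB falling as well as FOXA3. That fit called 4976 of 14693 genes higher and 4701 lower.

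S434A against WT with H89 asks whether the mutation still matters under H89. None of the 8 genes passed edgeR's test, nor did any gene tested (0% higher, 0% lower and 0% past 2-fold). At an unadjusted p under 0.05, 0 of the 8 genes and 589 of all genes (4.08%) differed. DESeq2 called 2 genes, neither of them among the 8. A p that misses the threshold does not show equal levels, so intervals are given: the limma-voom 95% interval of the fold ran from 0.832 to 1.23 for HNF4A, 0.850 to 1.07 for FOXA1, 0.825 to 1.22 for FOXA2, 0.951 to 1.26 for FOXA3 and 0.824 to 1.22 for CEBPB. It was wider for CEBPA (0.876 to 1.48), ONECUT1 (0.742 to 1.30) and PROX1 (0.646 to 1.63). These intervals use each gene's spread over all 12 libraries, untreated groups included. PROX1 ran from 50.8 to 57.5 CPM in treated WT and 54.7 to 56.8 in treated S434A, against 5.06 to 25.8 in untreated S434A. The libraries of the 2 groups did not overlap for FOXA1 and FOXA3, at log2 differences of -0.07 and 0.13 (edgeR unadjusted p = 0.396 and 0.164). The share of all genes without overlap was not determined, so this is not read as a genotype difference.

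The difference of the H89 effects (S434A minus WT) was lower than 0 for HNF4A, FOXA1, FOXA2 and CEBPB and higher for FOXA3. Over all genes 24.0% were called lower, 24.0% higher and 24.2% past 2-fold, which among the 8 was FOXA2. After trend removal PROX1 joined the lower ones, beside 3468 genes lower and 3381 higher of 14280. These values share their libraries with the comparisons above. A lower difference goes with a higher level in untreated S434A, since the H89 groups were close to each other.

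**Figure D4:**
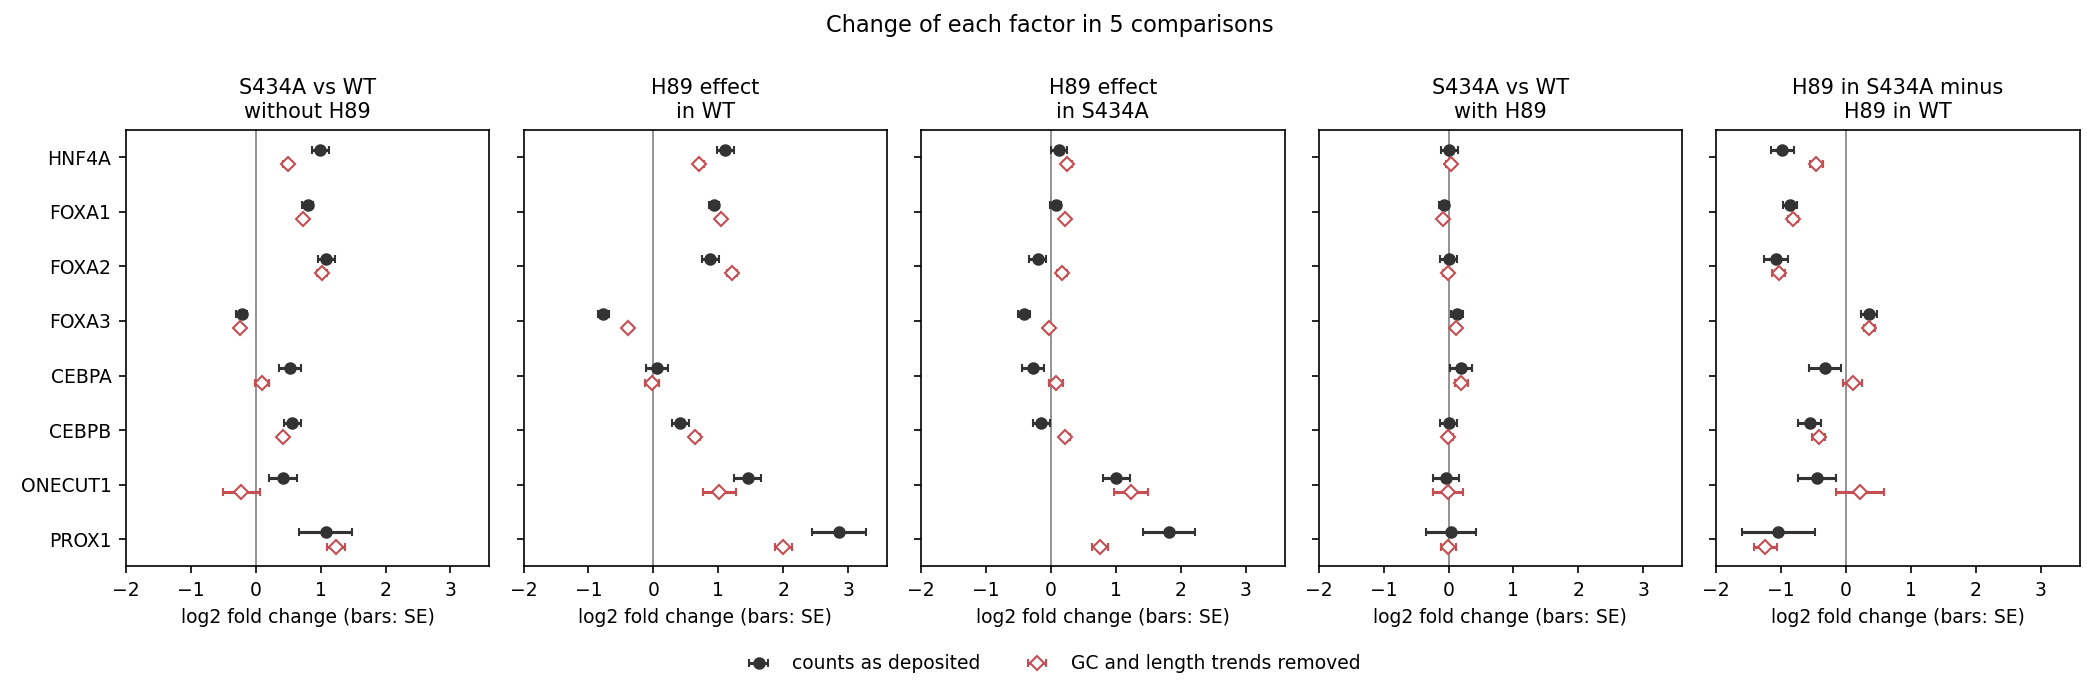
Log2 fold change (x axis) of the 8 genes (y axis) in the 4 comparisons and in the difference of the H89 effects; filled circles are counts as deposited, open diamonds the fit with GC and length trends removed, and bars are SE. With H89 the genotypes differ by at most 0.20 in size, and PROX1 with H89 in S434A shows the largest gap between the 2 fits, at 1.82 and 0.76.

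Other liver transcription factors were followed as a list of 24, of which 23 were tested. Without H89, 11 were higher and 1 lower in S434A than in WT, beside 29.0% and 29.3% of all genes, with a median of 0.62 beside -0.04 over all genes. Those named by smallest p were nuclear receptors NR2F2 (12.6 ± 1.21 against 5.25 ± 0.279 CPM; log2 1.26, SE 0.105) and NR2F1 (log2 1.07, 0.60 after trend removal), TBX3, a T-box repressor of the early liver (62.7 ± 9.13 against 28.3 ± 1.66 CPM; log2 1.15), and CREB3L3, a membrane-bound factor of hepatic lipid metabolism (log2 0.87). H89 in WT raised 16 and lowered 2, beside 38.8% and 30.9% of all genes, with a median of 1.23 beside 0.20. NR2F2 rose by 2.05, TBX3 by 1.81, ZHX2, a repressor of AFP, by 1.54 and NR2F1 by 1.38. H89 in S434A raised 8 and lowered 3, beside 29.3% and 22.7% of all genes, with a median of 0.23 beside 0.01. The share raised was near that of all genes. NR5A2, a nuclear receptor of bile acid synthesis, rose by 1.48 there (0.38 after trend removal, adjusted p = 0.0841). CEBPG rose by 0.94 (0.53 after trend removal), NR2F2 by 0.58 and TBX3 by 0.51. With H89 no member of this list differed between genotypes, and the most expressed of them, XBP1 and NR0B2, differed by 0.20 and -0.02. The counts after trend removal were 16 higher and 1 lower, 19 and 2, and 11 and 1 for the first 3 comparisons, with medians of 0.51, 0.75 and 0.32. Over all 14280 genes they were 4246 and 4111, 5488 and 4985, and 2973 and 3341.

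Classical target genes of these factors were a list of 21, of which 19 were tested. Without H89, 4 were higher and 9 lower in S434A, beside 29.0% and 29.3% of all genes, with a median of -0.44 beside -0.04. H89 lowered 12 and raised 2 in WT, beside 30.9% and 38.8% of all genes, with a median of -0.99. It lowered 12 and raised 0 in S434A, beside 22.7% and 29.3% of all genes, with a median of -0.57. After trend removal 2 were higher and 6 lower in untreated S434A, with a median of -0.04, 2 rose and 13 fell with H89 in WT (median -0.76), and 2 rose and 11 fell with H89 in S434A (median -0.59). APOA1, the main protein of high-density lipoprotein, went from 8474 ± 2.51 CPM in untreated WT to 2147 ± 47.2 with H89 (log2 -1.98, SE 0.0488) and was at 4531 ± 202 in untreated S434A. APOA2 (log2 -1.40), AMBP (log2 -1.60) and the acute-phase protein ORM1 (log2 -1.65) also fell with H89 in WT, and stood at -0.51, -0.99 and -0.75 after trend removal. APOB, the protein of very-low-density lipoprotein, rose instead (7076 ± 693 against 1475 ± 66.5 CPM; log2 2.26, edgeR adjusted p = 0.00633), by 1.14 after trend removal (adjusted p = 0.0317). HP, haptoglobin, was 1.44 lower on the log2 scale in untreated S434A (889 ± 183 against 2411 ± 64.7 CPM) and fell by 2.02 with H89 in S434A. APOC3 fell by 1.17 with H89 in S434A. Both genes were also lower with H89 in WT, HP at 193 against 2411 CPM on average and APOC3 at 90.7 against 225. ALB and SERPINA1 did not pass between genotypes with H89 (0.04 and -0.10). F9 had no counts in any library.

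Noncoding neighbours of the 8 genes were read with care, since the file header sets no option for strand. PROX1-AS1 overlaps PROX1 by 171 of its 8936 exonic bases on the other strand and went the other way: it fell with H89 by 1.15 in WT (5.66 ± 0.129 against 12.6 ± 1.0 CPM) and by 0.79 in S434A, with -1.93 and -1.42 after trend removal. It was 0.59 lower on the log2 scale in untreated S434A than in untreated WT. CEBPB-AS1 overlaps CEBPB by 231 of 1839 bases, but had at most 31 counts in a library and rose with H89 by 0.91 in WT (1.40 after trend removal) and 1.17 in S434A. CEBPA-DT was 0.64 higher in untreated S434A than in untreated WT and fell by 0.51 with H89 in S434A, a call that trend removal ended (-0.14, adjusted p = 0.277). LINC00261, next to FOXA2, rose by 0.65 with H89 in S434A as counted and stood at -0.01 after trend removal.

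The genes most like each of the 8 were found by the correlation of log2 CPM over the 12 libraries, among 11162 other genes. Libraries share their groups and their GC trends, so the values describe likeness only. HNF4A was closest to WDR81, NHSL1 and ATP8B2 (Pearson r of 0.997 to 0.999, n = 12 libraries). FOXA1 was closest to ERBB3, KMT2D and EP400 (0.998 each), and FOXA2 to KIF1C, PLCG1 and NACC1 (0.997 each). FOXA3 went with C20orf204, ATAD3A and PHF23 (0.989 to 0.993), and CEBPB with KCTD2, EVI5L and TAB1 (0.985 to 0.989). PROX1 went with WDFY3, CHD6 and NCOA3 (0.999 each), and ONECUT1 with KDM5A, ZNF800 and ZNF407 (0.994 to 0.995). CEBPA had the weakest matches, MOCS3, TIGD5 and MFSD5 (0.958, 0.956 and 0.951).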

How the data were processed

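RNA from 12 HepG2 cultures was sequenced, and the authors deposited 1 table of raw read counts per gene, made per the file header with featureCounts 2.0.1 over exons of read pairs. The submitters' processing notes name Bowtie 0.12.2 and hg19; the use of strand is not given in the sources used here. Gene symbols were matched to 58676 of 62475 identifiers. From the counts, edgeR 4.0.16 (R 4.3.3) gave TMM-scaled CPM and quasi-likelihood tests over all 4 groups for the 14435 genes that passed filterByExpr (minimum count 10), with Benjamini-Hochberg adjustment over all of them and a threshold of 0.05. Log2 CPM for correlations used a prior count of 2. Trend removal fitted, per library, splines (5 degrees of freedom) of GC content and exonic length and entered them as offsets, for the 14280 genes with both. GC came by identifier from an annotation of another build. Alternatives were DESeq2 1.42.0, limma-voom 3.58.1, other scaling factors (RLE, upper quartile), other filters, a replicate block, fits of only the groups compared, and each library left out. One further alternative, trend removal with replicate 1 of untreated S434A left out, was chosen after seeing the data.

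The members and the gene lists were chosen with earlier results of these data known. From each list, the text names up to 4 genes with the smallest p among those changed in a comparison, or the 2 most expressed where none changed, and the 3 genes most like each member with a mean of at least 2 CPM. Other genes named from the lists were chosen after their values were seen. In simulated data on 14435 genes, with 50 genes changed per fold, the test recovered 58% of 2-fold and 80% of 3-fold changes for S434A against WT without H89. For the difference of the H89 effects it recovered 46% and 58%. The deposited data had 8418 genes called for S434A against WT without H89. With so many more changed genes the adjustment differs, so the simulated shares do not give the power of the tests here. Library totals ran from 17562754 to 37187794 counts, and no 2 replicates agreed within sampling noise. Chi-square per degree of freedom over genes was 1.62 to 2.03 between untreated WT replicates and 3.85 to 9.07 within the H89 groups. Between untreated S434A replicates it was 32.5 to 156. The tests share each gene's spread over these unlike groups.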

Additional observations from a re-analysis of the deposited data

Results flagged for a closer look

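The H89 effect differed between the genotypes by the interaction term of edgeR's quasi-likelihood test (Benjamini-Hochberg adjusted p over all genes) for 5 of the 8 genes, beside 24.0% of all genes higher and 24.0% lower. In S434A minus WT, the difference was -0.98 for HNF4A (adjusted p = 0.00112), -0.87 for FOXA1 (adjusted p = 0.000122), -1.08 for FOXA2 (adjusted p = 0.000616), 0.35 for FOXA3 (adjusted p = 0.0383) and -0.56 for CEBPB (adjusted p = 0.0234), on the log2 scale with n = 3 libraries a group. Replicate 1 of untreated S434A bears on all 5 through the control arm, and without it the values were -0.85, -0.83, -0.94, 0.44 and -0.43. FOXA3 and CEBPB lost their call when certain other libraries were left out, with edgeR adjusted p of up to 0.0978 and 0.0688. All 5 passed after trend removal, where HNF4A shrank to -0.46.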

How the results depend on the processing

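Over the alternatives, 575 values of the 8 genes kept direction and side of the threshold, 59 turned sign, 45 lost and 25 gained the call. For each value below the cause was not tested. Deviations from group means had r of -0.15 to 0.47 over same-numbered pairs. Pairs of unlike number were not set beside them, so whether replicate numbers pair the samples was not settled. The fit with a replicate block changed 5 genes for S434A against WT without H89 (PROX1 lost, 0.97), 7 upon H89 in WT, 3 upon H89 in S434A, 0 between treated genotypes and 5 for the difference. The count for H89 in S434A was 1 in a fit of only the groups compared, 5 with trends removed, 5 with replicate block and trends removed, 6 with trends removed and replicate 1 of untreated S434A left out, and 3 to 6 leaving out 1 library. For the difference of H89 effects, leaving out 1 library gave 3 to 7. The CEBPB to CEBPA log2 ratio moved with trends removed to 0.33 for S434A against WT without H89 and 0.67 for H89 in WT. Sign turns were these. For S434A against WT without H89, ONECUT1 was -0.22 with trends removed and -0.25 with replicate block and trends removed. For H89 in WT, CEBPA was -0.094 with RLE and DESeq2, -0.056 with upper-quartile factors, -0.10 with no filter, -0.091 with only the groups compared, -0.023 with trends removed, -0.024 with the block as well, and -0.12 to 0.079 leaving out 1 library. For H89 in S434A, FOXA1 was -0.024 with RLE, -0.023 with DESeq2, -0.052 with upper-quartile factors, -0.031 with no filter and -0.077 to 0.11 leaving out 1 library, and HNF4A -0.037 to 0.26. With trends removed, with replicate block and trends removed, and with replicate 1 of untreated S434A also left out, FOXA2 was 0.17, 0.18 and 0.22, CEBPA 0.081, 0.072 and 0.13 and CEBPB 0.22, 0.22 and 0.24. For the difference, CEBPA was 0.10, 0.096 and 0.16, and ONECUT1 0.21 and 0.25 in the first 2. For S434A against WT with H89, all near 0, FOXA2 was -0.0066 with RLE, -0.0067 with DESeq2, -0.015 with trends removed and -0.013 with block and trends removed. CEBPB was -0.0079 with RLE and DESeq2, -0.00046 with only the groups compared, -0.0042 with trends removed and -0.0021 with block and trends removed. PROX1 was -0.0052 and -0.0045 in these last 2, and ONECUT1 0.0020 in the last. Leaving out 1 library gave -0.056 to 0.031 for FOXA2, -0.051 to 0.032 for CEBPB, -0.0045 to 0.072 for PROX1, -0.12 to 0.056 for ONECUT1 and -0.044 to 0.055 for HNF4A. Depth limited ONECUT1 most, with 62 to 260 counts a library.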
